A study of Mus musculus with 4 samples.

Results

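The genes described here encode 10 proteins that the airway lining secretes or uses at its surface: the secretoglobins Scgb1a1, Scgb3a1 and Scgb3a2, the club cell enzymes Cbr2 and Cyp2f2, the lysozymes Lyz1 and Lyz2, and the defence proteins Reg3g, Chia1 and Bpifa1. They were taken from a list of gene symbols that was chosen by earlier results on the same arrays, among them the log2 ratios of Scgb1a1, Chia1, Scgb3a1 and Reg3g between the genotypes. The contrast of genotypes is therefore given for them as a description. All probe sets annotated to these symbols were used, 12 of the 45137 probe sets that are not controls on the pair of array designs, for 10 of 18194 named genes. All 12 were on the design MOE430A and 0 on MOE430B.

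RNA came from fetal lung of mouse embryos at E18.5, late in gestation. One genotype was wild type on the BALB/c background, and the other was null for both Myf5 and Myod1, the regulators that commit cells to skeletal muscle, also labelled BALB/c. There was 1 array for each genotype on each design, 4 in all, and biotin-labelled cRNA was made from 6 µg of total RNA. No replicate exists, so no test between genotypes was possible, and the number of arrays limits the precision of every value. The labels do not state whether a sample was 1 embryo or a pool, nor how the lungs were separated from the trachea and neighbouring tissue. Neither allele is described as conditional, so the loss is taken from the labels as one of the whole embryo.

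Club cells are the non-ciliated secretory cells of the bronchioles, and they fill the airway fluid with secretoglobins, small secreted proteins that form disulphide-linked dimers. The same cells carry enzymes of foreign compound metabolism. Toward the trachea and larger bronchi the secretory cells make more of the mucosal defence proteins, and submucosal glands add lysozyme and related proteins. Lysozymes are also made by macrophages, neutrophils and alveolar type II cells, so a lysozyme signal of whole lung has several sources. In whole tissue, fewer cells of a type and less RNA per cell cannot be told apart.

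Promoter sequences from RefSeq, build GRCm38.p6, are shown for the members with the largest differences between arrays. They give the letters just before the start of each gene and so let the genes be compared at the sequence level. Each run is 140 bases long, 5′ to 3′ on the strand of the gene, and ends at the base before the annotated start. Capitals mark matches on either strand to TATAAA, the TATA box, to TGTTTNC, a forkhead motif, or to CAAGTG, an NKX2 motif. Scgb3a1 lies at chr11:49663455-49663594 on the plus strand, Reg3g at chr6:78468875-78469014 on the minus strand, Bpifa1 at chr2:154142740-154142879 on the plus strand and Chia1 at chr3:106113242-106113381 on the plus strand.
Scgb3a1: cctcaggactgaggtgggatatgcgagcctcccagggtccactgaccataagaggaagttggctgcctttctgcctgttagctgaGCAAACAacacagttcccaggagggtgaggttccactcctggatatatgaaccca
Reg3g: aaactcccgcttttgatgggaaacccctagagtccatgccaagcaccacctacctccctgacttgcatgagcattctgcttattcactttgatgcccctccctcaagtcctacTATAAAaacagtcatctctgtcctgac
Bpifa1: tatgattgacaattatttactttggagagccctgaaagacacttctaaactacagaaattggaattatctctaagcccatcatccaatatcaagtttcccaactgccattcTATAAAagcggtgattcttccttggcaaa
Chia1: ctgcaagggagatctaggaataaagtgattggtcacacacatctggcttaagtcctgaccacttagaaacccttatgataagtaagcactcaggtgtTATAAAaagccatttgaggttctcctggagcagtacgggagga

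Of 8 members with an entry in the promoter table, 3 held TATAAA in the 250 bases before the start, against 12.4% of 32851 promoter windows of that length. The 3 were Reg3g, Bpifa1 and Chia1, which differed in direction between the arrays. TGTTTNC was found in 2 of the 8, Scgb3a1 and Cbr2, against 17.8% of all windows. CAAGTG was found in 4 of the 8, Scgb3a1, Cyp2f2, Lyz1 and Lyz2, against 11.6%. The motifs do not overlap one another in these windows, and a match describes the letters of the window and no more.

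Lyz1 and Lyz2 are shown together because they are neighbouring copies of 1 gene, and arrays may not separate their RNAs. They lie on chromosome 10 with 5522 bases between them. The printed runs are chr10:117292869-117293008 and chr10:117282273-117282412, both on the minus strand.
Lyz1: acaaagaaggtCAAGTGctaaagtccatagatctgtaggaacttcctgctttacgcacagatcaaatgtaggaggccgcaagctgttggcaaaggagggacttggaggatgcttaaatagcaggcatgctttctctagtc
Lyz2: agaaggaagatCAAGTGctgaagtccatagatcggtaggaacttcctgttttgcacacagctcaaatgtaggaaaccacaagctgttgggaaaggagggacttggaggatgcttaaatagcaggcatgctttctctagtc

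The 2 runs had the same letter at 127 of 140 positions, and both carried CAAGTG from 129 to 124 bases before the start. Their first 50 transcribed bases were the same at 49 positions. The signal of a lysozyme probe set may therefore include RNA of the other gene.

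The targeted genes were read first. The Myf5 probe set gave 110.5 on the array labelled wild type and 8.94 on the array labelled double knockout. Both lie below 284, the 25th percentile of MOE430A signals, which served as a floor under which no fold was formed. Myod1 gave 85.0 and 1081 on MOE430A, so it went against the label, and 337 and 607 on MOE430B. The position of these probe sets relative to the deleted parts is not stated, so directions below rest on the labels alone. Xist probe sets that passed the filter given below were 3.64-fold (3242 and 891) and 2.76-fold (7600 and 2749) lower on the array labelled double knockout. The third lay below the floor on both arrays. Of 6 probe sets of 3 Y-linked genes, 5 read higher, but all 6 were below the filter. The folds of those 5, some with 1 signal set to the floor, ran from 1.12 to 2.57. Sex is not labelled, so it cannot be told apart from genotype. Of 14 lymphoid and thymic markers that passed the filter, 12 were at least 2-fold lower, against 1.78% of all genes of the design. Nearly all of the 14 passed only through the array labelled wild type, so the filter favoured the lower direction. Without the filter their median log2 ratio was -2.83. By its 3 control probe sets, 18S ribosomal RNA read a median of 3.91-fold higher on the array labelled double knockout.

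Signals below are MAS5 intensities of MOE430A, with wild type first and double knockout second, the second divided by 1.004 so that the median ratio was 1. A probe set passed the filter when the higher signal reached 787, the median of the design. By this rule 9 of the 10 genes passed, with 11 of 12 probe sets, and Bpifa1 did not. Of the passing probe sets, 1 was at least 2-fold higher on the array labelled double knockout and 2 were at least 2-fold lower. Over all passing probe sets of the design, 1.80% reached 2-fold in the higher and 2.05% in the lower direction. Since the members were picked from this contrast, nothing is read from their share. The other 8 passing probe sets differed by less than 2-fold, and all 8 were higher, though Scgb3a2 only without quantile normalization. They include every probe set of Lyz1. Over the design, 49.9% of all passing probe sets were above a log2 ratio of 0, and 74.1% of those at or above the 98th percentile of signal. Nothing is read from the shared direction of the 8 either.

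**Figure D1:**
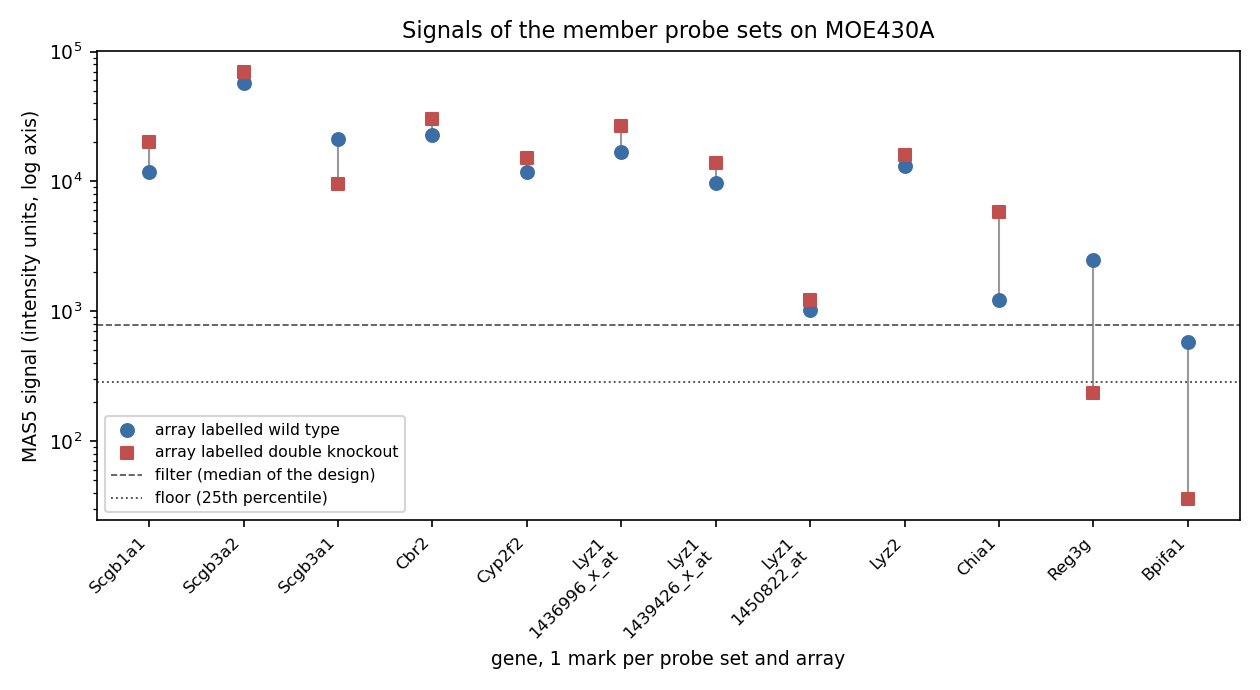
MAS5 signal of each member probe set on a log axis, circles for the array labelled wild type and squares for the array labelled double knockout, 1 array each, with the filter at 787 (dashed) and the floor at 284 (dotted). Within a probe set, Scgb3a1, Reg3g and Bpifa1 have the lower mark for double knockout and the other 9 probe sets the higher one, as plotted with 1 factor between arrays (Scgb3a2 turns with quantile normalization).

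The secretoglobins parted in direction. Scgb1a1, the club cell secretory protein of the bronchioles, read 11774 and 20128, which is 1.71-fold higher on the array labelled double knockout (log2 ratio 0.77). Scgb3a2, an abundant secretoglobin of the small airways, read 57148 and 69559 (0.28, but -0.0085 with quantile normalization). Scgb3a1, a secretoglobin of the larger airways, read 21230 and 9479, which is 2.24-fold lower (-1.16). The signals of all 3 genes were far above the filter on both arrays.

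A single factor between arrays cancels when members of 1 array pair are compared. The log2 ratio of Scgb1a1 exceeded that of Scgb3a1 by 1.94, and that of Scgb3a2 exceeded it by 1.45. Scgb1a1 and Scgb3a2, both in the higher direction, differed by 0.49. In place of a replicate error, pairs of bright probe sets of 1 gene on MOE430A, 391 pairs, gave an SD of 0.39 for the difference of 2 log2 ratios. The 99 passing probe sets present on both designs gave 0.34 between designs. These are spreads between probe sets and not between embryos. Scgb1a1 and Scgb3a1 were picked from this contrast, so their difference is not weighed against these spreads. The log2 ratios of those 99 were also on average 0.22 higher on MOE430A than on MOE430B, which the SD leaves out. That offset is near the size of the smaller positive ratios of members, such as 0.28 for Scgb3a2.

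The xenobiotic enzymes of club cells were slightly higher on the array labelled double knockout. Cbr2, the carbonyl reductase that club cells hold at high levels, read 22717 and 30267 (log2 ratio 0.41). Cyp2f2, the P450 enzyme that activates naphthalene in club cells, read 11816 and 15249 (0.37). The 2 ratios were within 0.05 of each other. Both exceeded the ratio of Scgb3a1, by 1.58 for Cbr2 and 1.53 for Cyp2f2.

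Ratios of the brightest probe sets lay above 0 in general. Among 495 passing probe sets of MOE430A with a signal of at least 15054, the 98th percentile, the median log2 ratio was 0.15 and 74.1% were above 0. The percentile for this description was set after the values were seen. Among the 2496 probe sets at or above the 90th percentile, a signal of 4003, 0.681% reached 2-fold in the higher and 1.20% in the lower direction. Since the members were picked from this contrast, they are not ranked against these probe sets.

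**Figure D2:**
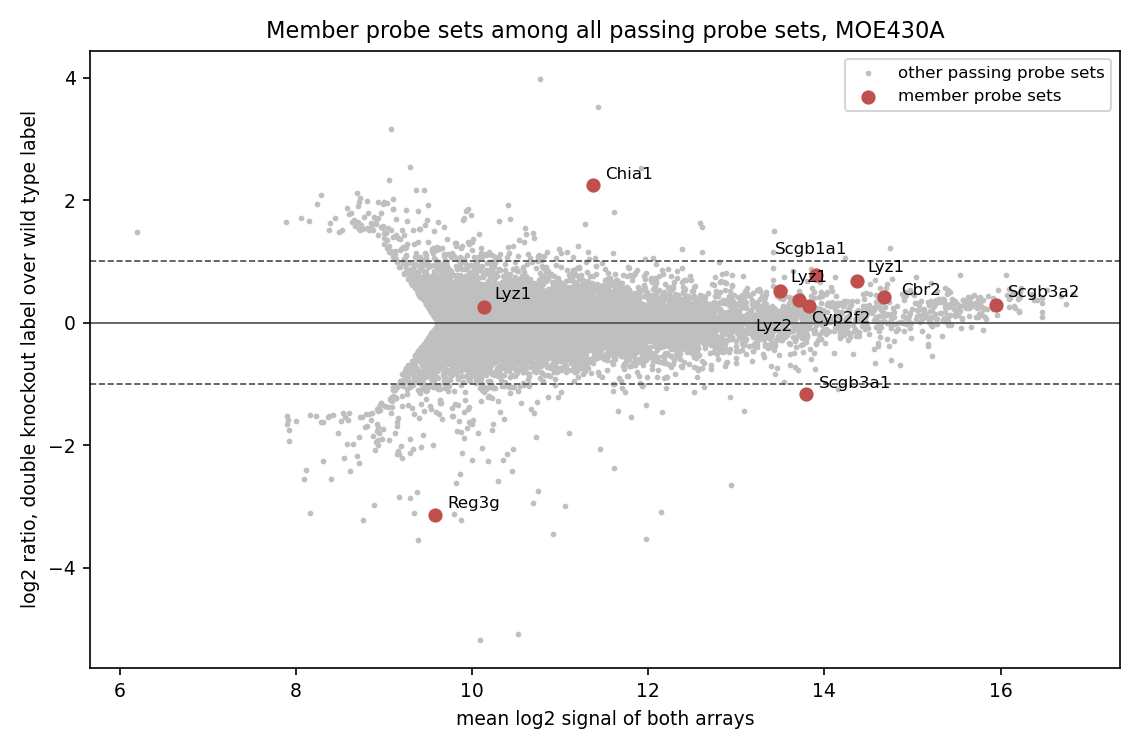
Log2 ratio of the array labelled double knockout over the array labelled wild type against mean log2 signal, for the 12203 passing probe sets of MOE430A, with the 11 passing member probe sets in red and dashed lines at 2-fold. Chia1 (2.24) lies above the upper line and Reg3g (at most -3.14) and Scgb3a1 (-1.16) below the lower one, where other probe sets lie too, while the other member probe sets lie between 0.25 and 0.77.

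The lysozymes, which cut the cell wall of bacteria, were higher by every probe set but to unequal degrees. Lyz1, the P lysozyme first known from the intestine, was read by 3 probe sets. The first gave 16719 and 26848 (log2 ratio 0.68) and the second 9667 and 13900 (0.52). The names of both end in _x_at, which Affymetrix gives to probe sets that may also bind related transcripts. The third Lyz1 probe set, without that mark, was dim and gave 1029 and 1224 (0.25). Lyz2, the M lysozyme of macrophages, neutrophils and type II cells, read 13229 and 15961 (0.27). The _x_at probe sets of Lyz1 were thus higher than both the remaining Lyz1 probe set and Lyz2, and the brightest exceeded Lyz2 by 0.41. Given the sequence likeness shown above, how much each lysozyme gene gave to these signals cannot be told apart.

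Markers of the other cell types that make lysozyme did not share 1 direction. Type II cell markers, the genes of the surfactant-making cells, were higher for 13 of 14 passing genes. Their median log2 ratio was 0.35, against 0.01 over 7658 genes of the design. Most of these markers were bright. Over all probe sets the median was 0.03 at or above the 90th percentile and 0.15 at or above the 98th. With quantile normalization or with a loess curve removed, the median of the markers was 0.26. The summed signal of the markers was 228328 and 304666. Macrophage markers were higher for 4 and lower for 10 of 14 passing genes (median -0.08), with sums of 24071 and 23338. Csf1r, the macrophage growth factor receptor, gave 0.07. All 8 passing neutrophil markers were lower (median -0.47), with sums of 12930 and 9727, and S100a8, a product of their cytoplasm, gave -0.87. Of the neutrophil list, 4 genes were below the floor on both arrays, as were 2 of the macrophage list. On MOE430B both passing macrophage markers were higher. Cybb gave 0.14, and 0.99 by its other probe set. Laptm5 gave at least 2.07 and passed only through the array labelled double knockout. Of 5 passing type II markers there, 4 were higher (median 0.24), and the only passing neutrophil marker, Fcnb, gave -0.0054. Laptm5 was named after its value was seen. The part of these cells in the lysozyme values was not tested.

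The mucosal defence members held the widest differences. Chia1, the acidic mammalian chitinase that digests chitin in airway and stomach, read 1222 and 5774 and was 4.73-fold higher on the array labelled double knockout (log2 ratio 2.24). Reg3g, a secreted lectin that binds the peptidoglycan of Gram-positive bacteria, read 2494 and 236, the second below the floor, and was at least 8.79-fold lower. It passed the filter only through the array labelled wild type, and with the floor at the median its bound was a log2 ratio of -1.66. Bpifa1, also called Splunc1, a surface-active protein of the upper airway lining, read 579 and 35.9, the first below the filter. It would be at least 2.04-fold lower if the filter were not applied. Each of these 3 genes was read by a single probe set, so no second reading of it exists on these arrays. Of the passing members, the nearest to the 2-fold threshold were Scgb3a1 on its outer side at 2.24-fold and Scgb1a1 on its inner side at 1.71-fold.

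Relatives of Reg3g and Chia1 were dim on both arrays. Of the other Reg genes, all 5 were below the filter. Reg3b read 753 and 706, Reg3d 521 and 569, and Reg3a 59.3 and 37.7. Reg1 read 160 and 453 and Reg4 45.4 and 349, the second signal of both above the floor. Of the 6 other chitinase family genes on MOE430A, only Chil1, a chitin-binding protein without chitinase activity, passed, with 740 and 979 (log2 ratio 0.40). It passed only through the array labelled double knockout. These Reg genes and Chil1 were named after their values were seen.

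Other genes of airway secretory cells were mostly slightly higher on the array labelled double knockout. Of 48 on the list, 40 were on MOE430A and 26 passed. Of these, 21 were higher and 5 lower, with 0 at least 2-fold in either direction, where 1.76% of all genes of the design reached 2-fold in the higher and 1.78% in the lower direction. At 1.5-fold, 3 were higher and 0 lower, and the median was 0.19. Over all 7658 genes of the design, 51.3% were above 0. These counts take the brightest passing probe set of a gene. Il13ra1, a receptor chain of interleukin 13, had another passing probe set that was 2.05-fold lower (817 and 399). That probe set passed only through the array labelled wild type. Gsto1, a glutathione transferase, had the highest ratio (0.77, and 0.44 by its other probe set), with signals of 2724 and 4651. Cldn10, a tight junction protein of club cells, had 0.76 (3416 and 5784). At the low end were Aldh1a1, an aldehyde dehydrogenase, with -0.52 and Ltf, the iron-binding lactoferrin, with -0.53. On MOE430B 4 genes of the list passed. Sec14l3, a lipid-binding protein of airway epithelium, read 42396 and 38433 (-0.14), Lypd2 had -0.04, Fmo2, a flavin monooxygenase of lung, had 0.52, and Muc16, a membrane mucin, had 0.64. Fmo2 was also higher on MOE430A, with 0.40 and 0.12 by its passing probe sets.

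The mucins and gland genes on that list were mostly dim. Muc5b, the main mucin of mouse airways, read 785 and 483, just under the filter, and Agr2, a disulphide isomerase needed to fold mucins, read 653 and 96.0. Muc5ac, the goblet cell mucin, read 164 and 147. Bpifb1, a relative of Bpifa1 in airway secretions, read 76.0 and 347. The genes in these sentences, Ltf, Muc16 and Il13ra1 were named after their values were seen.

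The regulators of secretory cells had a median log2 ratio of 0.16 on MOE430A. Of 25 genes, 21 passed, 15 higher and 6 lower, with 0 past 2-fold by the brightest probe set. Other probe sets went further. The second passing probe set of Notch1, a receptor of the Notch pathway, read 1961 and 803 (-1.29), and that of its ligand Jag2 read 1256 and 577 (-1.12), where their brightest gave 0.16 and -0.04. This Jag2 probe set passed only through the array labelled wild type. Ehf, an epithelial ETS factor, read 432 and 1004 on MOE430B (1.22) and passed only through the array labelled double knockout. Its probe sets on MOE430A were below the floor on both arrays. Cebpd and Cebpa, C/EBP factors that bind promoters of club cell and type II cell genes, had log2 ratios of 0.53 and 0.51, though the other probe set of Cebpd gave 0.03. Hes1, the Notch target that favours secretory over ciliated fate, had -0.19. Grhl2, a regulator of epithelial junctions, had -0.18, but 0.03 by its other passing probe set. Nkx2-1, which specifies lung epithelium, read 735 and 1218 (0.73) and passed only through the array labelled double knockout. Nkx2-1, Notch1, Jag2 and Ehf were named after their values were seen.

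Other antimicrobial genes were spread on both sides of 0 on MOE430A. Of 32 on the list, 29 were on the design and 11 passed, 5 higher and 5 lower, with a median of 0.00 and 0 past 2-fold. Sftpa1, a collectin of surfactant that binds microbes, had 0.52, and 0.08 by its other probe set. Cxcl15, a chemokine of lung epithelium, had 0.41, and on MOE430B, where ratios of bright probe sets were a median of -0.10, it had 0.73. All 3 passing genes of the list on MOE430B were higher (median 0.73), among them Ang, an angiogenin ribonuclease, with 1608 and 3259 (1.02), named after its value was seen. S100a8 and S100a9, whose products form calprotectin, had -0.87 and -0.52. Both are also on the neutrophil list.

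**Figure D3:**
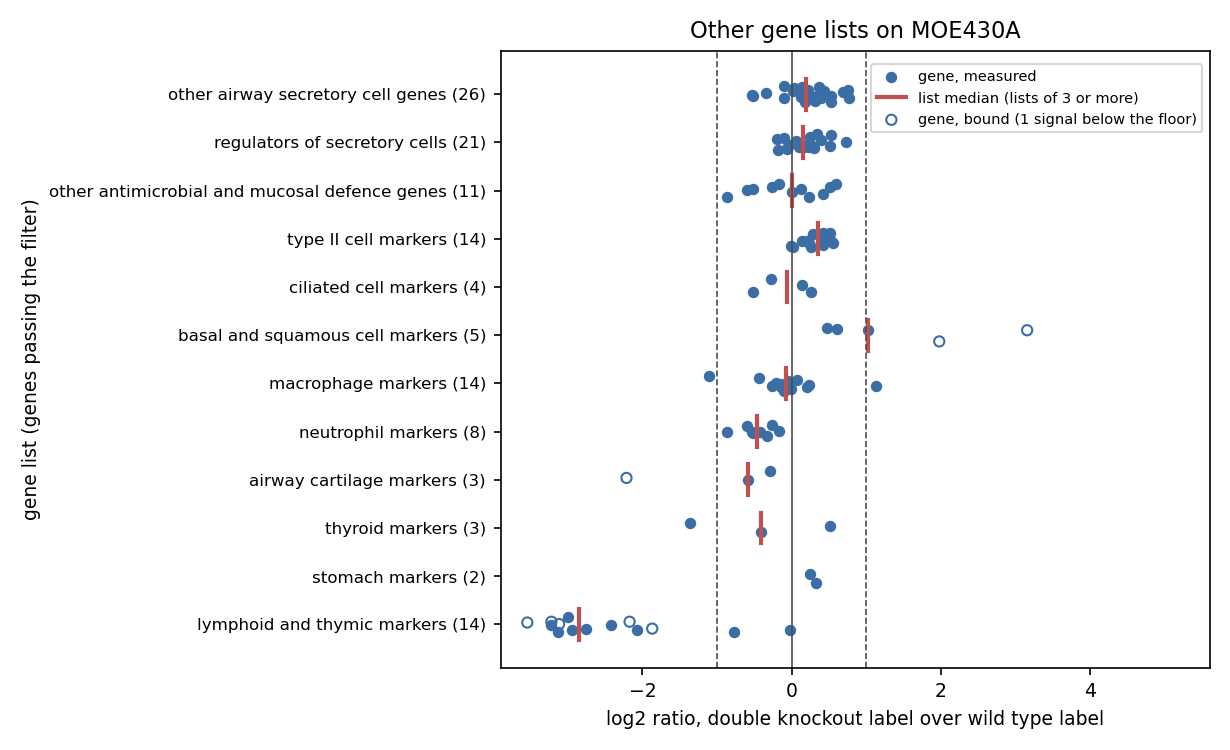
Log2 ratios on MOE430A of the passing genes of 12 other lists, 1 mark per gene, open where 1 signal lies below the floor so that the value is a bound, with list medians as red bars. Airway secretory genes cluster near their median of 0.19. The 5 passing basal and squamous markers lie above 0, and 4 of them passed only through the array labelled double knockout. Most lymphoid and thymic markers lie far below 0, and nearly all of that list passed only through the array labelled wild type.

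Markers of tissue next to the lung differed between the same arrays as Scgb3a1, Reg3g, Bpifa1 and Chia1. Of the airway cartilage list, 3 of 14 genes passed. Col2a1, the collagen of cartilage, read 1317 and 107, at least 4.64-fold lower, and Col11a1, a minor collagen of cartilage, 923 and 613. Both passed only through the array labelled wild type, so for them the filter favoured the lower direction. Col9a1 passed on both arrays with 1232 and 1010 (-0.29). Its other passing probe set was 2.20-fold lower (1436 and 654) and passed only through the array labelled wild type. Without the filter 10 genes had a median of -0.19. Acan (550 and 686), Sox9 (424 and 562), Sox5 (587 and 688) and Snorc (174 and 647) read higher. Comp (505 and 365), Hapln1 (406 and 259) and Matn3 (418 and 380) read lower. The list's summed signal was 7145 and 5669. Of the thyroid list, 3 of 6 genes on the design passed. Tg, thyroglobulin, read 829 and 322 (log2 ratio -1.36) and passed only through the array labelled wild type. Pax8 had -0.41 and Hhex 0.51, and the sums of the list were 4590 and 4220. On MOE430B the thyroid markers were higher, with Pax8 at 1.43, the iodide transporter Slc5a5 at 1.14 and Tshr, the thyrotropin receptor, at 0.55. With the filter of that design at 855, Pax8 (345 and 930) and Slc5a5 (797 and 1756) passed only through the array labelled double knockout. The filter thus favoured the higher direction for both. The cartilage genes there, Hapln1 and Sox5, had -0.06 and 0.47. Lymphoid and thymic markers summed to 38259 and 5940. The part of trachea, thyroid or thymus held with the lungs in the values of the members was not tested.

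Among genes of stratified epithelium, 5 of 9 basal and squamous markers on MOE430A passed, with a median of 1.03 and sums of 4049 and 9603. Of the 5, 4 passed only through the array labelled double knockout, so the filter partly fixed their direction. On the array labelled wild type Krt5 read 619 and Krt6a 666, both keratins of basal or squamous cells. Without the filter 8 genes had a median of 0.84. Krt4, a keratin of the oesophagus and of airway epithelium, read 117 and 2525, at least 8.90-fold higher, and was 2.94-fold higher on MOE430B (3053 and 8963). Krt13, its partner keratin, read 158 and 1116, at least 3.93-fold higher on MOE430A, but its probe set on MOE430B gave -0.57. That probe set (864 and 580) passed only through the array labelled wild type. Krt15, a keratin of basal cells, read 1244 and 2534 (1.03). Trp63, the factor that defines basal cells, read 467 and 247, below the filter. Of the stomach list, to which Chia1 is related by its site of expression, 2 of 9 genes passed, Tff1 with 0.32 and Atp4b with 0.25, and the acid pump subunit Atp4a was below the filter. On MOE430B the stomach gene Gkn3 had 0.09 (6335 and 6764). Its other probe set there was 4.72-fold lower (1691 and 358) and passed only through the array labelled wild type. The part of these tissues in the value of Chia1 was not tested. Ciliated cell markers, the neighbours of club cells, were 2 higher and 2 lower of 4 passing genes on MOE430A, with a median of -0.07. Tubb4b, 1 of the lower genes, had -0.28 by its brightest probe set, but 0.23, 0.55, 0.76 and 1.42 by its other passing ones. On MOE430B 4 were higher and 4 lower of 8 passing genes (median 0.0076), with sums of 30849 and 37168. Exocrine pancreas and intestine markers had a median of 0.28 over 4 passing genes, but -0.22 without probe sets ending in _x_at or _s_at. The passing neuroendocrine markers on MOE430A were Ddc (-0.45) and Uchl1 (-0.35), and Uchl1 passed only through the array labelled wild type. Several genes were named after their values were seen. They were Uchl1, Slc5a5, Sox5, Col2a1, Col11a1, Col9a1, Acan, Sox9, Snorc, Comp, Matn3, Krt5, Krt6a, Tg and Pax8. Hapln1, Krt4 and Krt13 on MOE430A, Trp63 and the stomach genes other than Tff1 and Gkn3 were named so too.

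**Figure D4:**
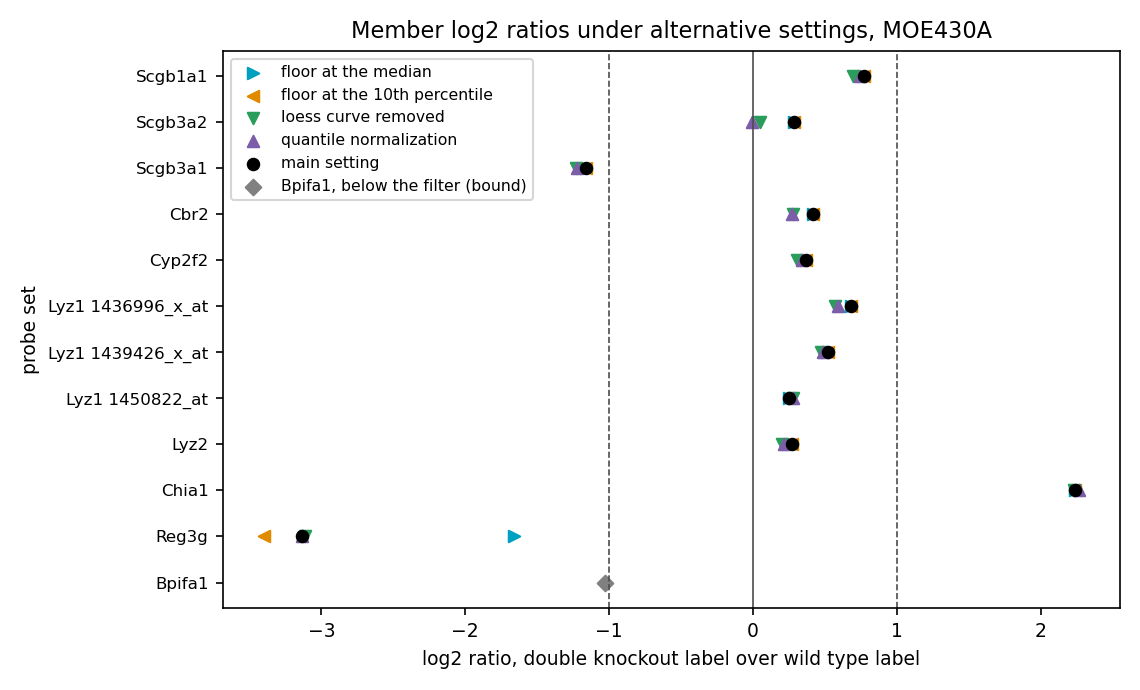
Log2 ratio of each member probe set on MOE430A under the main setting and under alternative scalings and floors, with dashed lines at 2-fold. Most marks of a probe set overlap, and the floors cannot move a probe set with both signals above them. Scgb3a2 falls to about 0 with quantile normalization (-0.0085) and a loess curve removed (0.05), and Reg3g, whose second signal is under the floor, ranges from -3.40 to -1.66 with the floor.

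The order of the members by log2 ratio was Chia1, Scgb1a1, Lyz1, Cbr2, Cyp2f2, Scgb3a2, Lyz2, Scgb3a1 and Reg3g, each by its brightest passing probe set. The middle of this order changed with the scaling. With quantile normalization Scgb3a2 (-0.0085) fell below Lyz2 (0.21) and Cbr2 (0.27) below Cyp2f2 (0.34). With a loess curve removed, the same pairs gave 0.05 and 0.20, and 0.28 and 0.31. No order is read among these 4 genes.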

How the data were processed

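The series measured RNA of fetal lung on Affymetrix 3′ arrays. Per the labels, the authors deposited 1 intensity per probe set on a linear scale, made with MAS5 per the submitters' processing notes. The version, settings, detection calls and genome build of that step were not stated. Trimmed by 2% at each end, every array had a mean near 1500, so each had been scaled on its own, and ratios were formed only within a design.

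The 64 controls of each design were removed. Double knockout signals were then divided by a constant, 1.004 on MOE430A and 1.008 on MOE430B, that set the median ratio of passing probe sets to 1. The filter was the median and the floor the 25th percentile of each design. Signals below the floor were set to it, which gives "at least N-fold". MAS5 signals are noisy when dim, which widens ratios of dim probe sets. Names came from GEO's platform annotation, and all 10 members matched RefSeq's gene table (GRCm38.p6). Each list gene was taken by its brightest passing probe set on a design, lists of fewer than 3 genes got no median, and genes with a bound entered at it.

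With 1 array per group there is no test. The members and the 15 gene lists were chosen with earlier results of these data known. From each list, the rule named up to 4 genes at or above the 75th percentile with both signals above the floor, the 2 highest and 2 lowest. Other names are marked as chosen after their values were seen. The steps were tested on simulated arrays with less noise than the real ones. Shifts were planted only in probe sets above the 75th percentile, so dim or floored members were not covered. The 8 alternatives were the signals as deposited, quantile normalization, a loess curve removed, floors at the 10th percentile and the median, a filter at the 75th percentile, no filter, and probe sets ending in _x_at or _s_at left out. Python 3.11.15 was used, with numpy 2.4.6, pandas 2.3.3 and statsmodels 0.14.6.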

Additional observations from a re-analysis of the deposited data

How the results depend on the processing

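A member's value was taken as moved when an alternative changed its log2 ratio by more than 0.24, the SD of 1 log2 ratio from the 99 probe sets on both designs. That SD leaves out their mean offset of 0.22 between designs. Of 85 such values, 82 stayed within that limit. The exceptions were Scgb3a2 with quantile normalization (-0.0085), Reg3g with the floor at the 10th percentile (-3.40, measured) and at the median (-1.66, a bound). The count of members at least 2-fold higher was 1 and of those at least 2-fold lower 2 in all 8 alternatives, except that 3 were lower without the filter. Most of these outcomes were fixed by the settings. For a probe set with both signals above the floors, only quantile normalization and the loess curve could change its ratio beyond a constant shared by all probe sets. No stability is therefore read from these counts. The limit of 0.24 is for a single ratio, so no stability is read from it for list medians. With the floor at the median, medians moved by more than it for basal and squamous (0.50), cartilage (-0.29), thyroid (-0.074) and lymphoid markers (-1.75). Without the filter, cartilage markers had -0.19, with 10 genes in place of 3. With the filter at the 75th percentile, lymphoid markers had -3.12. Pancreas and intestine markers turned to -0.22 without probe sets ending in _x_at or _s_at. In that setting Prss2 was taken by its other passing probe set (-0.56 in the main setting) in place of its brightest, an _x_at one (0.43). Prss2 was named after its values were seen. With 1 array per genotype and design, no replicate could be left out. No paired analysis was possible because each group held 1 array. Dim members, Reg3g and Bpifa1 on the array labelled double knockout, are limited by signal over background.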
